A study of Caenorhabditis elegans with 2 samples.

Results

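The core Notch pathway of Caenorhabditis elegans was represented by 10 genes, out of 19985 protein-coding genes in the annotation. They are the receptors lin-12 and glp-1, the ligands lag-2, apx-1 and arg-1, the processing genes sup-17, sel-12 and aph-1, and the nuclear effectors lag-1 and sel-8. They were chosen by their place in the pathway, and no measured value enters the rule. For each, the peaks counted were those that overlap the gene or the 2000 bp upstream of it. The peaks come from chromatin immunoprecipitation and sequencing of HLH-26, a transcription factor of the bHLH (basic helix-loop-helix) class and of the worm's REF-1 family, in 2 biological replicates of whole young adults collected at 66 hours. Both replicates are strain RW12174, whose allele st12174 is a CRISPR insertion of GFP at hlh-26 with an unc-119(+) marker between loxP sites, in animals that also carry unc-119(tm4063) on chromosome III. The animals were synchronised by bleaching and starvation as L1 larvae, and an antibody against GFP was used. All samples form 1 group, with no second condition, so the values below are descriptions set beside all genes or all peaks, and no test between groups exists. Chromatin was taken from whole animals, so binding in a few cells and weaker binding in many cannot be told apart.

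Notch signalling passes between touching cells. A ligand of the DSL family on one cell binds the receptor on its neighbour, a metalloprotease and then the presenilin complex cut the receptor, and the freed intracellular part enters the nucleus, where it joins the DNA-binding protein LAG-1 and the co-activator SEL-8 to switch on target genes. In the worm, GLP-1 keeps germline stem cells dividing and LIN-12 directs choices between cell fates in the gonad and vulva. Several REF-1 family genes are transcribed in response to Notch in the embryo, which places them downstream of the genes described here.

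The authors deposited a ranked list, of all peaks compared, and a much shorter thresholded list for each replicate and for 2 comparisons of the series. Peaks were ranked by the irreproducible discovery rate (IDR), which says how poorly a peak's rank recurs between 2 compared lists, and the deposited score rises as the IDR falls, with 540 standing for an IDR of 5.01% and 830 for 1.00%. The ranked list that sets the replicates against each other holds 35301 peaks and is used below unless another is named. Its lowest score is 27, an IDR of 86.0%, and 15980 of its peaks have that score. The other ranked list of the series holds 35468 peaks, replicate 1's own list 19393 and replicate 2's own list 24293. The signal of a peak is the authors' enrichment value on a scale that no label or file states, so it is read by its rank within a list. Read counts are not part of these lists, and the sequencing depth under a peak is therefore unknown.

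The sequences below surround the summit of the peak of highest signal at lag-2, arg-1, apx-1, lin-12, lag-1, sel-8 and sel-12. Another surrounds that of the lag-2 peak that both replicates' own lists held. The results turn on these peaks. None is printed for sup-17 and aph-1. They are 101 bp windows of the ce11 genome, read 5′ to 3′ along the gene's own strand from RefSeq. Capitals mark a searched motif, and a window without capitals holds none of the 8 motifs.
lag-2, chrV:3188763-3188863, plus strand: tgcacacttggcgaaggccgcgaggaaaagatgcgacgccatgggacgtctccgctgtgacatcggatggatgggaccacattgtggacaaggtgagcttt
lag-2, chrV:3189585-3189685, plus strand: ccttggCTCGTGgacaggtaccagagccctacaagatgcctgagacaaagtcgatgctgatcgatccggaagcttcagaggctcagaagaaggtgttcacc
arg-1, chrX:1787525-1787625, plus strand: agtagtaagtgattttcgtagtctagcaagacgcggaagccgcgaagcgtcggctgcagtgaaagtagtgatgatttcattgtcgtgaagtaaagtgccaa
lin-12, chrIII:9064544-9064644, minus strand: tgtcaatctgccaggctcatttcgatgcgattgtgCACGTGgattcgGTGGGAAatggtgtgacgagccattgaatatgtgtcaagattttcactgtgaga
apx-1, chrV:3214954-3215054, plus strand: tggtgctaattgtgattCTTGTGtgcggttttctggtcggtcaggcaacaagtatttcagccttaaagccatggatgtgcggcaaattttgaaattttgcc
lag-1, chrIV:6104660-6104760, plus strand: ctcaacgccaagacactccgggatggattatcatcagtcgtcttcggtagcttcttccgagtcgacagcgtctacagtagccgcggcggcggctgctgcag
sel-8, chrIII:3623058-3623158, minus strand: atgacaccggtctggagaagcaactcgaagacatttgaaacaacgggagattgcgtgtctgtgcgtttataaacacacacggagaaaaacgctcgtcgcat
sel-12, chrX:913645-913745, plus strand: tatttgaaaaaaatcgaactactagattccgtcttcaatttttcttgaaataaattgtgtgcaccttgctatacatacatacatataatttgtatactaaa

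Ranked peaks were present at most of the pathway, but no member reached a score of 540. In the list that compares the replicates, 9 of 10 members had a ranked peak, where 67.8% of all protein-coding genes did. In the other series list 8 members did, against 67.6% of all genes. In replicate 1's own list the count was 9, against 52.2%, and in replicate 2's own list also 9, against 58%. The same 9 were not seen in each list, since glp-1 had no peak in either series list and aph-1 had none in the own list of either replicate. A peak of the comparison list that overlaps a ranked peak of both replicates was found at 7 members, against 29.6% of all genes. The members without one were glp-1, apx-1 and aph-1. Below, found in both replicates means this overlap with both own lists. Each own list is itself a comparison of 2 lists. Every peak of the comparison list has a signal in both lists it compares, so absence from an own list is not absence of signal in that replicate. A peak above the lowest score was found at 8 members, against 48.9%. A score of 540 or more was reached by 0 members, against 1.69%, and 0 had a peak in the conservative thresholded list, against 0.55%. Of the 4 thresholded lists, 0 held a peak at any member. With so few genes past these thresholds in the whole annotation, none among 10 is near the background.

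The members are long, and longer intervals hold more peaks. Of the 10, 6 fall among the genes with the longest intervals when all genes are split by interval length into 4 groups of like size (5634 bp or more), where 81.3% of genes had a ranked peak and 43.6% had one found in both replicates. In the group from 3215 to 4026 bp, which holds lag-2, arg-1 and aph-1, those shares were 63.2% and 23.8%. In the group from 4027 to 5633 bp, which holds sel-12, they were 70.4% and 29%. The 10 intervals held 44 peaks over 92.7 kb, or 0.475 per kb, beside 0.421 per kb over the intervals of all genes. Over all genes the density fell with interval length, from 0.476 per kb in the shortest group to 0.388 in the longest. Among the members it ran from 0 at glp-1 through 0.290 per kb at lag-1 to 0.904 per kb at sel-12. Of the 4 sel-12 peaks, 2 were upstream and overlapped the gene F35H12.6.

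**Figure D1:**
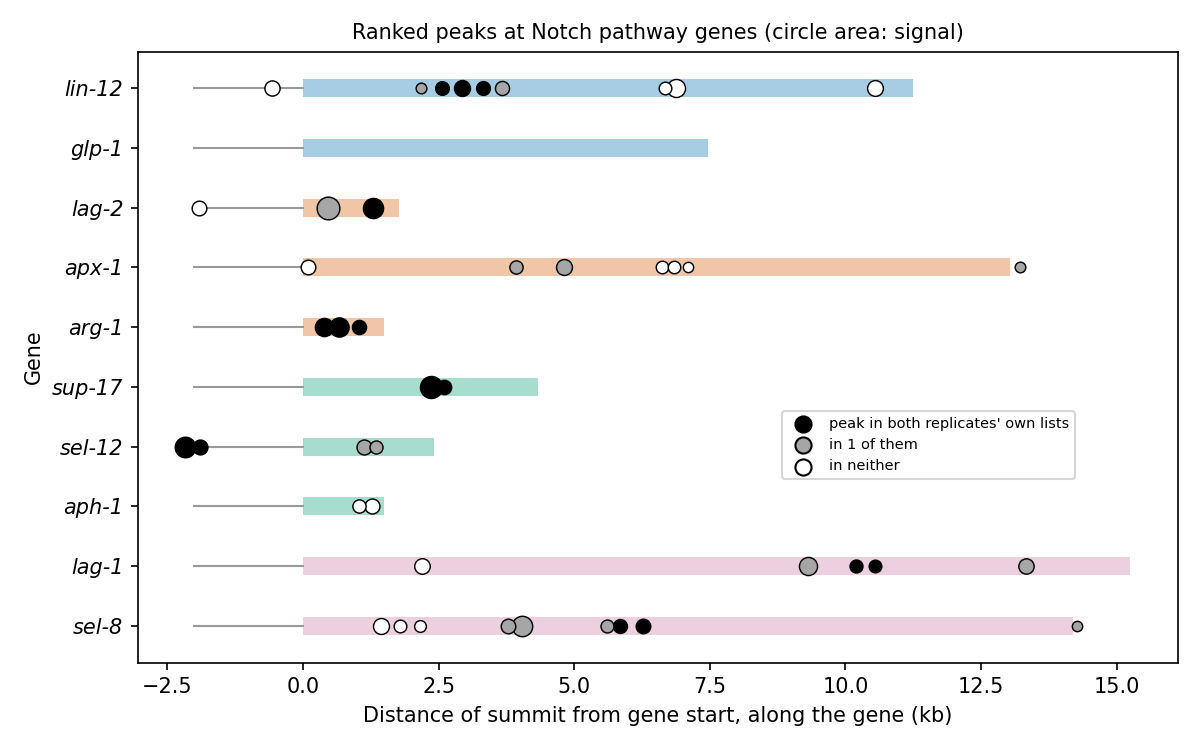
Summits of the 44 ranked peaks at the 10 genes, by distance from the gene's start in kb along the gene (bar, gene; thin line, 2 kb upstream); circle area follows signal, and fill shows whether the peak overlaps a ranked peak in both replicates' own lists, in 1 or in neither. Most circles lie inside the genes, glp-1 has none, and all 3 peaks of arg-1 and both of sup-17 are filled black.

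The receptor genes differed in the comparison list, but not in the same way in each replicate. lin-12 (chromosome III, 9060221 to 9071472, minus strand) had 9 ranked peaks, and glp-1, which lies 20.8 kb away on the plus strand (9092241 to 9099698), had 0. The lin-12 peak of highest signal (9064332 to 9064855) had a signal of 37.6, rank 7117 of 35301, with a summit in a coding exon 6878 bp into the gene. Its score was 70, and it overlapped no ranked peak of either replicate's own list. An overlapping peak (9064539 to 9065062) had the highest score at the gene, 100, or an IDR of 57.2%, and was likewise absent from both own lists.

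A second cluster at lin-12 was made of 5 overlapping intronic peaks with summits 2182 to 3673 bp from the start. All 5 carried the same signal in the second compared list, 13.2, so they rest on 1 peak there. Of these 5, 3 overlapped a ranked peak of both replicates and the other two only one of replicate 1. The peak of the cluster with the highest signal (9068281 to 9068804) had 29.2 in the comparison list, with its summit at 9068543. Replicate 2's own list had a peak there at 13.2, rank 16141, with its summit at 9068539. In replicate 1's own list the peak it overlapped had 18.3, rank 10743. That peak's summit was at 9068158, under a neighbouring peak of the cluster. Only 1 lin-12 peak was upstream of the gene, with its summit 579 bp before the start, a signal of 26.6 and the lowest score.

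glp-1 gave peaks only when each replicate was taken alone, and at different places. In replicate 1's own list lin-12 had 5 peaks and glp-1 had 1, while replicate 2's had 1 at lin-12 and 3 at glp-1. With overlapping peaks merged, replicate 2's own list had 1 at each gene, so the order did not turn. Replicate 1's then had 3 at lin-12 and 1 at glp-1. Replicate 1 had 1 peak in a coding exon (9096487 to 9097030), with a signal of 12.8 and rank 16986 of 19393. Replicate 2 had 3 overlapping peaks, the highest of them (9098302 to 9098797) with a signal of 15.9. The peaks of the 2 replicates did not overlap and were 954 bp apart at the nearest, and all had the lowest score of their list. The span free of any comparison-list peak around glp-1 was 22565 bp. A gene of this length without a peak was not rare: 934 genes of the longest group, or 18.7%, had none.

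The ligand genes held the strongest signal of the pathway, at lag-2. This gene encodes a DSL ligand of the distal tip cell, the niche of the germline stem cells, and lies on chromosome V (3188343 to 3190115, plus strand). Its highest peak (3188551 to 3189074) had a signal of 59.3, rank 809, and a score of 242, an IDR of 26.1%. The summit was in a coding exon, 470 bp from the start. The signal in the compared lists was 22.9 in the first and 36.4 in the second. Among the own lists, only that of replicate 2 had it, at a signal of 36.4 and rank 344 of 24293.

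The second lag-2 peak was the one found in the own lists of both replicates. It lay in the coding region (3189373 to 3189896), 1292 bp from the start, with a signal of 46.8, rank 2934 and a score of 155. Replicate 1's own list had it at 26.9, rank 3570, and replicate 2's at 18.5, rank 8462. The own lists thus differed on these 2 peaks. Replicate 1's held only the one farther from the start, and replicate 2's placed the one nearer the start far ahead. The first compared list, which shares lines with replicate 1's own list, gave both, the nearer at 22.9 and the farther at 26.9. Another peak, near the upstream edge of the interval with its summit 1919 bp before the start, had a signal of 24.8, the lowest score and no match in either own list. lag-2 stood 971st of 13542 genes with a peak by highest signal.

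arg-1, another DSL ligand gene, is on chromosome X (1786907 to 1788405, plus strand) and had 3 overlapping peaks, all of which overlapped peaks in both replicates' own lists. The highest (1787313 to 1787836) had a signal of 42.4, rank 4492, and a score of 142, an IDR of 45.3%, with its summit in an intron 668 bp from the start. In replicate 1's own list the peak that overlapped it most had a signal of 19.8, rank 9188, with its summit at 1787746. In replicate 2's the signal was 28.1, rank 1651, with the summit at 1787638. Replicate 2 placed this peak nearer the top of its list. The arg-1 peak with a signal of 38.2 went the other way, at rank 8524 in replicate 1's own list and 18483 in replicate 2's. The remaining one had a signal of 23.1.

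apx-1, the ligand gene that acts between blastomeres of the early embryo, is on chromosome V 20.1 kb from lag-2 (3210196 to 3223221, plus strand). It had 7 peaks, and none overlapped a ranked peak of both replicates. The highest (3214742 to 3215265) had a signal of 29.1, rank 14225, and a score of 65, and only replicate 2's own list held it, at 11.8, rank 18247. Its summit was in an intron, inside the promoter window (500 bp upstream to 100 bp downstream) of an internal transcript start of apx-1. The only other peak of the 44 in a member's own promoter window was also at apx-1, in a coding exon 86 bp from the gene's start, with a signal of 24.6. The other 6 apx-1 peaks, this one included, had the lowest score. Replicate 1's own list held 2 peaks at apx-1, and neither matched one of replicate 2.

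Among the processing genes, sup-17 had the highest score of all members. It encodes the ADAM metalloprotease that cuts the receptor outside the membrane and is on chromosome I (8792964 to 8797295, plus strand). Its highest peak (8795054 to 8795577) had a signal of 55.9, rank 1141, and a score of 288, an IDR of 20.2%, with its summit in a coding exon 2352 bp from the start. The own-list peak that overlapped it most had a signal of 29.9 in replicate 1, rank 2260, and 24.9 in replicate 2, rank 2955. Replicate 2's own list had another peak that overlapped it (8794901 to 8795396), at 29.7 and rank 1234. The sup-17 peak of 55.9 was the member peak of highest signal that both own lists held. In the comparison list a second peak that overlapped it had a signal of 23.7 and a score of 73. sup-17 stood 1334th of 13542 genes by highest signal and 1223rd by highest score.

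sel-12, a presenilin gene for the catalytic subunit of the complex that cuts the receptor within the membrane, is on chromosome X (915867 to 918290, plus strand). Its peak of highest signal (913433 to 913956) had 48.5, rank 2484, but its score was only 62, and just 90 of its 524 bp lay inside the counted interval. That peak also overlapped the gene F35H12.6, so it belongs to sel-12 only by the 2000 bp rule. Both replicates' own lists held it, at 20.5 in replicate 1 and 11.1 in replicate 2. A second upstream peak (913701 to 914224), with a signal of 25.3, also overlapped F35H12.6 and peaks of both replicates, with its summit in a coding exon. Only through these upstream peaks does sel-12 count among the members with a peak found in both replicates. The 2 peaks inside sel-12 had signals of 25.7 and 19.6 and a score of 94, and only replicate 2's own list held them. aph-1, which encodes another subunit of the same complex, is on chromosome I (9232068 to 9233560, minus strand) and had 2 peaks with signals of 25.6 and 20.1. Both had the lowest score and neither was found in any other list, and the first also overlapped the neighbouring gene gip-2.

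The peaks of the nuclear effectors were mostly in introns in the comparison list. lag-1, the gene of the DNA-binding protein of the complex, is on chromosome IV (6095407 to 6110655, plus strand) and had 5 peaks. The highest (6104448 to 6104971) had a signal of 37.8, rank 6974, and a score of 126, an IDR of 49.6%, in a coding exon 9303 bp from the start. Only replicate 2's own list held it, and it also overlapped the non-coding RNA gene K08B4.42. A pair of intronic peaks of lag-1 overlapped a peak in each own list. Replicate 1's peak had a signal of 21.3, rank 7625, and its summit at 6105637. Replicate 2's had 14.7, rank 13809, and its summit at 6105980.

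sel-8, the gene of the Mastermind-like co-activator, is on chromosome III (3612951 to 3627142, minus strand) and had 9 peaks, of which 8 had their summit in an intron. The highest (3622846 to 3623369) had a signal of 47.9, rank 2650, and a score of 137, an IDR of 46.6%. Only replicate 1's own list held it, at 20.3, rank 8645. The 2 sel-8 peaks that overlapped peaks of both replicates had lower signals, 24.3 and 22.3, and a score of 81. They lay over replicate 1's peak at 3621029 to 3621572 and replicate 2's at 3620634 to 3621129. These overlap each other only at their edges. The strongest peak overlapped ranked peaks of both replicates at 3 members, arg-1, sup-17 and sel-12, and did not at the others with a peak.

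**Figure D2:**
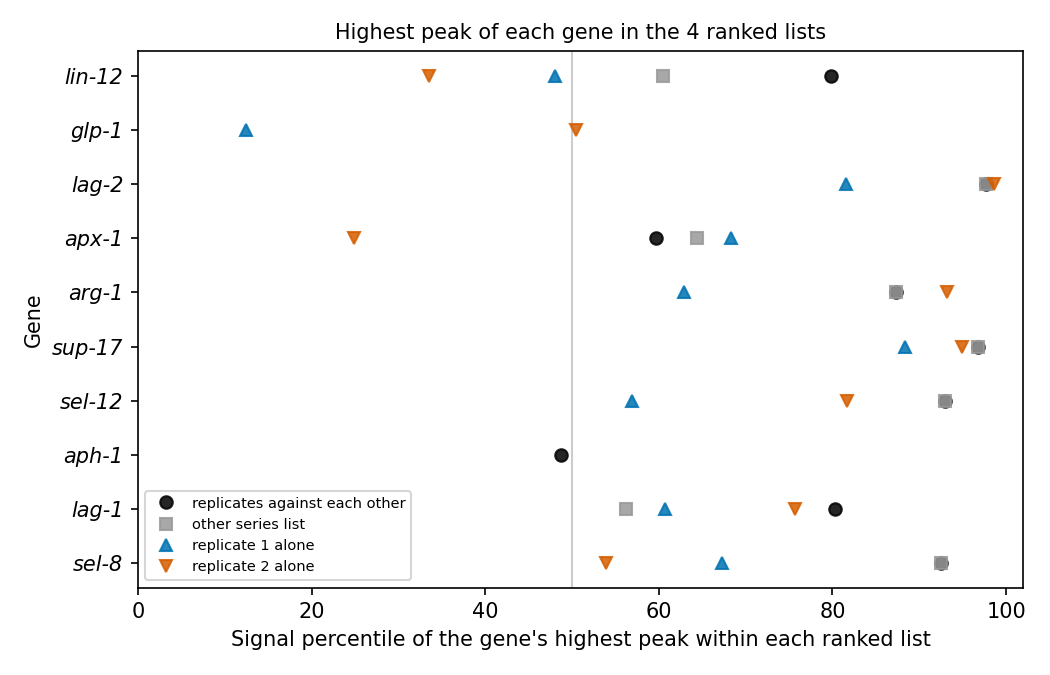
Percentile of signal, within each of the 4 ranked lists, of the highest peak at each gene (circles, replicates against each other; squares, other series list; triangles, each replicate alone). lag-2 and sup-17 lie far to the right in most lists, while glp-1 appears only in the replicates' own lists and aph-1 only in the comparison list. At lag-2 and sup-17 the circle and the square are the same peak with the same signal, not separate measurements.

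Across the pathway, the order of the genes by highest signal in the comparison list was lag-2, sup-17, sel-12, sel-8, arg-1, lag-1, lin-12, apx-1 and aph-1. The place of sel-12 rests on the peak at the edge of its interval, whose summit lies outside it, and the next highest peak of sel-12, at 25.7, stood beside the 25.6 of aph-1. By highest score sup-17 came before lag-2, and arg-1, sel-8, lag-1, lin-12, sel-12, apx-1 and aph-1 followed. The neighbours lag-1 and lin-12 had signals of 37.8 and 37.6. The other series list lacked these 2 peaks. The highest signals there were 27.8 at lag-1 and 29.2 at lin-12, below the 30.7 of apx-1, and aph-1 had no peak. In the comparison list, members with a peak had a median highest signal of 42.4 (9 genes), beside 36.3 over the 13542 genes with a peak. Their median highest score was 126, beside 81. A highest value per gene can rise with the number of its peaks. Genes of the longest group, which holds 6 members, averaged 3.82 peaks, beside 2.2 over all genes. Genes of like length were not compared, so no excess can be read from these medians.

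As a whole, the 44 peaks lay near the middle of the ranked list. Their median signal was 24.4, at the 44.9th percentile, and 16 (36.4%) lay above the median of the list. Their median score was 64.5, beside 57 over all ranked peaks. The lowest score was held by 18 (40.9%), beside 45.3% of all ranked peaks, and 9 reached a score of 100, beside 21.8%. Past the 90th percentile of signal there were 5, or 11.4%.

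**Figure D3:**
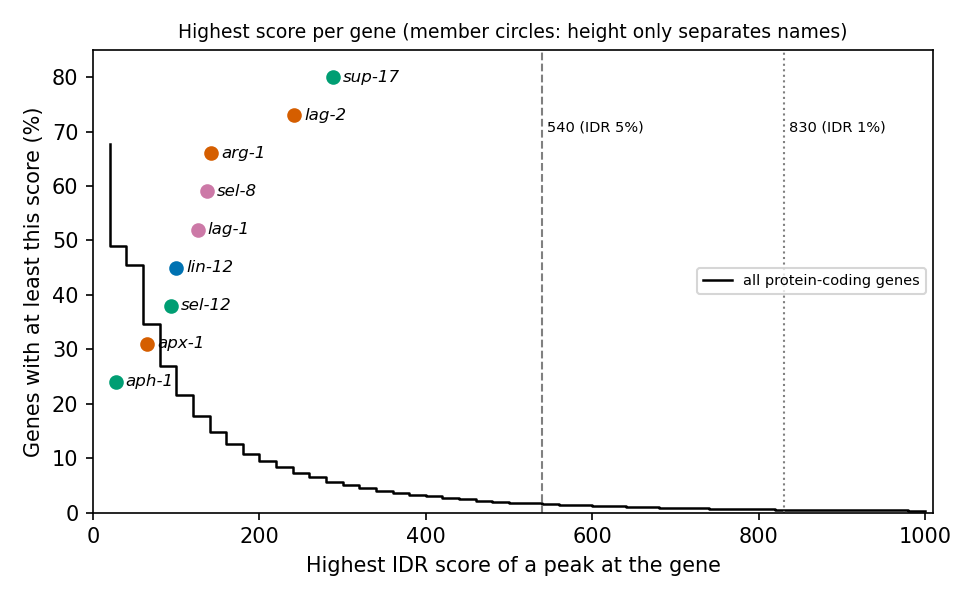
Highest IDR score at each member with a ranked peak (coloured circles, whose height only separates the names) over the percentage of all protein-coding genes that reach at least that score (black line). Every member lies below the line at 540, with sup-17 the nearest at 288.

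The share of member peaks that overlapped both own lists was close to that of the whole list, but a larger share overlapped neither. Of the 44 peaks, 15 (34.1%) overlapped ranked peaks of both own lists, beside 31.1% of all ranked peaks. Neither own list matched 15 of the 44, beside 8579 of all 35301. Replicate 1's own list matched 21 of the 44 (47.7%, beside 51.9%) and replicate 2's 23 (52.3%, beside 54.9%). The compared lists gave a signal to each peak, and Spearman's rho between the first and the second was 0.39 over the 44 member peaks and 0.15 over all 35301. These are descriptions without a test, since overlapping member peaks share 34 peaks of the first list and 27 of the second. The first list had the higher signal at 26 (59.1%), beside 66.7% of all ranked peaks.

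**Figure D4:**
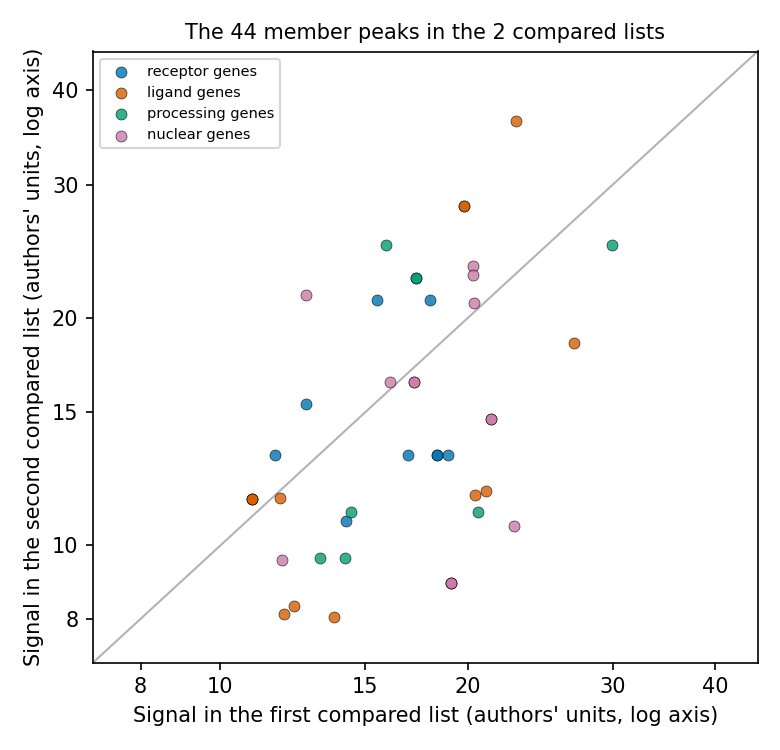
Signal of each of the 44 member peaks in the first compared list (x axis) and the second (y axis), both logarithmic and in the authors' units, coloured by role, with the line of equal values. The highest point on the y axis is the lag-2 peak at 22.9 and 36.4, and the farthest right is the sup-17 peak at 29.9 and 24.9.

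Most member peaks had their summit inside the gene, and gene bodies also make up most of the counted intervals. Summits were in introns at 26, in coding exons at 12, upstream at 4 and beyond the gene's end at 2, and none was in an untranslated region. The intervals themselves were 50.1% intron, 22.9% coding, 5.40% untranslated and 21.6% upstream, beside 59.1%, 27.3%, 0% and 9.09% of summits. The intron majority was not seen in each replicate alone. By the annotation of any protein-coding gene, replicate 1's own list had 13 member summits in introns and 12 in coding exons, and replicate 2's had 7 (38.9%) and 11 (61.1%). The rule counts gene bodies and their upstream flanks, so these shares are set against the intervals. In a promoter window of any protein-coding gene there were 2 of the 44 summits (4.55%), beside 14.5% of all ranked peaks. That background covers the whole genome. The part of the intervals that such windows take up was not measured, so no lack of promoter summits can be read from these shares.

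Matches to 8 short motifs were counted under the summits. Both strands of the 101 bp windows were searched. The N-box, CACNAG, is bound in other animals by proteins of the Hairy and Enhancer of split type, and a window can hold it beside any of the other motifs. The sites of bHLH proteins searched were CACGTG as well as CATGTG with its relative CATGCG, then CAGCTG, and also CACGCG. The sites of the LAG-1 type were GTGGGAA besides ATGGGAA. The N-box was under 8 of the 44 summits (18.2%), beside 13.2% of all ranked peaks, with 3 of the 8 at apx-1 and 2 at lin-12. In the replicates' own lists it was under 7 of 27 member summits in replicate 1 (25.9%, beside 13.4%) and 2 of 18 in replicate 2 (11.1%, beside 13.2%), so the direction against all peaks turned without replicate 1. CACGTG was under 2 (4.55%, beside 2.42%), CATGTG under 3 (6.82%, beside 3.72%), CATGCG under 1 (2.27%, beside 2.16%), and CAGCTG (2.76% of all) and CACGCG (1.92% of all) under 0. GTGGGAA was under 1 (2.27%, beside 1.33%) and ATGGGAA under 2 (4.55%, beside 2.08%).

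Of the 9 members with a peak, 7 had none of the 8 motifs in the window of their strongest peak, and the other two were apx-1 and lin-12. The strongest lin-12 peak held 2 motifs in the window printed above. CACGTG lay 15 to 10 bp before the summit and GTGGGAA from 3 bp before it to 3 bp after it, with 6 bases between them. Both occurred together in 16 of the 35301 windows, or 0.0453%. This pair was singled out after the motifs were seen, in a peak that neither own list nor the other series list held.

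Few peaks lay close outside the counted intervals on the upstream side. The nearest lay 1555 bp beyond the interval of sel-8, with a signal of 24.4, and the next 1783 bp beyond that of apx-1, with 23.9. Of the counted peaks, the sel-12 peak of 48.5 lay across the edge with its summit outside, and the lag-2 peak of 24.8 lay across it with its summit just inside. Beyond the gene ends, the nearest were 87 bp from sel-8 (16.2) and 89 bp from lin-12 (16.7). A stronger one, with a signal of 52.9, lay 7116 bp beyond the end of lag-1.

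A wider list of Notch pathway genes, 37 with a match in the annotation, held 4 genes with a higher score than any core gene. Of all protein-coding genes, 6.48% had a score of 280 or more and 5.71% had 300 or more. A ranked peak was found at 28 of them (75.7%, beside 67.8% of all protein-coding genes), and one found in both replicates at 15 (beside 29.6%). By role, 9 of 12 ligand and co-ligand genes, 3 of 4 processing genes, 7 of 7 modifiers and 9 of 14 target genes had a ranked peak. The targets without one were hlh-25, hlh-26, hlh-27, lst-1 and ark-1, so that the tagged gene hlh-26 itself carried no ranked peak in the comparison list. The REF-1 family genes hlh-28 and hlh-29 shared 1 peak. A score of 540 or more was reached by 1 gene of the 37, beside 1.69% of all genes. It was dos-3, a DOS co-ligand gene. Its peak (chromosome III, 835802 to 836325) had a signal of 88.1, rank 69, and a score of 793, an IDR of 1.23%, with the summit 3527 bp into a gene of 3841 bp. The own list of replicate 1 had it at 59.1 and that of replicate 2 at 30.9. It also overlapped the transcription factor gene zip-2 and was not in the thresholded list.

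The next highest signals in the wider list were at dsl-4 and egl-43. The dsl-4 peak (chromosome X, 14088218 to 14088741) had a signal of 66.9 and a score of 350, with its summit 1909 bp before the gene's start in an intron of F16B12.1. The egl-43 peak (chromosome II, 9959910 to 9960433) had a signal of 66.1 and a score of 441, with its summit in an intron 59 bp from a transcript start. egl-43 encodes a zinc finger protein of the gonad's anchor cell. ref-1, the REF-1 family's founding gene and a Notch target, was added after its values were seen, as the remaining gene with a score above every core gene. Its peak (chromosome II, 10217888 to 10218411) had a signal of 59.2, rank 818, and a score of 393, with its summit 321 bp before the gene's start and over the non-coding RNA gene T01E8.10. The own list of replicate 1 had it at 34.2 and that of replicate 2 at 27.2. The peaks of dos-3, dsl-4 and egl-43 stood above the strongest of the 10 core genes, the lag-2 peak of 59.3, by signal.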

How the data were processed

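Per the labels, the 8 deposited lists are on ce11 (WBcel235) in the narrowPeak layout, and come from HLH-26-eGFP chromatin of 2 biological replicates sonicated to 200 to 800 bp. Each peak has a deposited score (the IDR rescaled to at most 1000), an enrichment signal as the authors gave it, and −log10 IDR values that the authors deposited. No label or file names the peak caller or the IDR software, and no depth can be read from peak lists.

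The comparison list was identified because all 90 lines of the conservative thresholded list are in it. Its first compared list holds 13627 lines of replicate 1's own list and 0 of replicate 2's, and the second 14541 of replicate 2's and 0 of replicate 1's. Gene models were those of Ensembl (release 115), and the genome sequence was RefSeq's for WBcel235, with 1-based coordinates. An overlap of at least 1 bp counted, and peaks that overlap each other were counted separately. The genes named are all 10 members, genes that overlap their peaks, and of the wider list those with a score of 540 or more and the 3 of highest signal. ref-1 and the wider list's genes named for having no peak or a shared peak (hlh-25, hlh-26, hlh-27, hlh-28, hlh-29, lst-1, ark-1) were named after their values were seen. Members and lists were chosen with earlier results of these data known. Counting was tested on simulated data. Alternatives were the other list, each replicate alone, other intervals, overlap rules, windows and thresholds. Python 3.11.15, numpy 2.4.6 and pandas 2.3.3 were used.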

Additional observations from a re-analysis of the deposited data

How the results depend on the processing

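The number of members with a ranked peak stayed at 8 or 9 under 10 of 11 alternatives, and was 0 at a score of 830 or more. Members with a peak in both replicates numbered 7, and 4 when a replicate's peak had to cover at least 50% of the member's peak or when summits had to lie within 100 bp. The members lost under either of these rules were lin-12, lag-1 and sel-8. The 44 ranked peaks became 18 without replicate 1 and 27 without replicate 2, 25 when overlapping peaks were merged, 0 at a score of 830 or more, and 26 with a score above the lowest, a setting that was added once the data had been seen. The count of 0 members at 540 held in the other list, in each replicate alone and with 5000 bp upstream. The rest of the 10 alternatives narrow the interval or overlap rule or raise the threshold, so they could not have changed it. The median signal percentile ran from 41.7 to 55.8, the latter after merging. Merging keeps the strongest of overlapping member peaks, while the percentile is still taken in the unmerged list, so that rise follows from the rule. Promoter summits ran from 1 to 3, and N-box windows from 0 (25 bp either side) to 13 (100 bp), with 2 without replicate 1 and 7 without replicate 2. No paired analysis was possible because all samples form 1 group and no test was made. The lists carry no depth, and 2 replicates limit what can be said of any single peak.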
